A study of Mus musculus with 6 samples.

Results

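The secreted Wnt antagonists are extracellular proteins that keep Wnt ligands from activating their receptors. The 7 genes described here are Dkk1, Dkk2 and Dkk3 of the Dickkopf family, Sfrp1, Sfrp2 and Sfrp4 of the secreted frizzled-related family, and Wif1, Wnt inhibitory factor. They were taken by symbol from the 23521 probe sets of the table that carry 1 gene symbol, out of 41345 probe sets in all. All 7 had a probe set, and Sfrp2 had a pair of them, which made 8 probe sets. The set was proposed with the levels and ratios of these arrays in view, so the values of the 7 genes are a description and carry no test.

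RNA of 3 cultured mouse cancer lines was hybridised to 1-colour whole-transcript arrays after labelling with biotin. AE17 is a malignant mesothelioma line, LLC the Lewis lung carcinoma and MC38 a colon adenocarcinoma line. Each line gave 1 array labelled sh Ctrl, which also bears the genotype label wild type, and 1 labelled sh Spp1, with the genotype label Spp1 depletion. Spp1 is the gene of osteopontin, a secreted ligand of integrins and Cd44, and sh stands for a short hairpin RNA. All cultures grew in the same medium with fetal bovine serum and no further treatment. The labels do not say whether the controls carried a control hairpin, nor whether a knockdown culture was a clone or a pool. The level of Spp1 was not analysed here, so each direction rests on the labels.

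In the canonical pathway a Wnt ligand joins a Frizzled receptor with the coreceptor Lrp5 or Lrp6, the complex that degrades beta-catenin is switched off, and beta-catenin enters the nucleus and activates genes with TCF and LEF factors. Dkk1 and Dkk2 bind Lrp5 and Lrp6, with Kremen proteins as partners, and Dkk2 can also act as a weak agonist in some settings. Dkk3 is the divergent member of its family, and the frizzled-related proteins and Wif1 bind the Wnt ligands themselves. Several of these genes are silenced in human tumours by promoter methylation.

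The results turn on Dkk2, and for 3 of the genes the RefSeq table of assembly GRCm38.p6 gave a window that ends before the annotated gene, from 250 to 27 bases before the listed start site. These 224 bases are shown 5′ to 3′ on the gene's strand for Dkk2, whose level differed most between arrays, for Wif1, which like Dkk2 read lower with sh Spp1 in every line, and for Dkk1, which did not. Capitals mark matches on either strand to the core promoter motif TATAAA, to the motif CTTTGAT of TCF and LEF factors, to its variant CTTTGAA, or to the AP-1 motif TGANTCA.
Dkk2: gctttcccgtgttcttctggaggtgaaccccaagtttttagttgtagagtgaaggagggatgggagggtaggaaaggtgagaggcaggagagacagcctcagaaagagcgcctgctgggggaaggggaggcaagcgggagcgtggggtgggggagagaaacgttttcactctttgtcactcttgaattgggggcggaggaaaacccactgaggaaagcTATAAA
Wif1: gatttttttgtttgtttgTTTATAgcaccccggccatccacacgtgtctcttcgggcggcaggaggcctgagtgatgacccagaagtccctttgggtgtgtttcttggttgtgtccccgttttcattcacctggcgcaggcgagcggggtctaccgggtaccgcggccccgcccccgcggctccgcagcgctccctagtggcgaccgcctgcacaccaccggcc
Dkk1: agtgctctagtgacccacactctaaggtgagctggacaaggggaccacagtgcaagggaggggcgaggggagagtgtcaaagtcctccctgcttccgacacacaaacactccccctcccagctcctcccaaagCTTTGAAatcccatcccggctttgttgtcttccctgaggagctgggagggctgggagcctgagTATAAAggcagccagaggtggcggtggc
The Dkk2 window lies at chr3:132085042-132085265 on the plus strand, that of Wif1 at chr10:121033754-121033977 on the plus strand and that of Dkk1 at chr19:30549523-30549746 on the minus strand. TATAAA begins 32 bases before the start site in Dkk2 and 54 bases before it in Dkk1. In Wif1 its reverse complement begins 232 bases before the start. Of 32851 windows of this length in the table, 10.3% hold it on either strand. CTTTGAA, present in the Dkk1 window only, occurs in 4.12% of all windows. CTTTGAT, held by 2.95% of windows, and TGANTCA, held by 6.23%, had no match in the 3 windows. No 2 of these motifs overlapped there. A match is a run of letters and was not tested as a binding site.

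Levels are log2 intensities after quantile normalization between arrays. The deposited arrays had median intensities from 26.6 to 64.2 and in each line the sh Spp1 array was the dimmer by median, so values as deposited and values centred on each array's median are given where they change a statement. The groups also differed in spread. With the outer deciles left out, log2 intensities spanned 5.99 to 6.05 units on sh Ctrl arrays and 6.56 to 6.73 on sh Spp1 arrays. Median centring leaves this difference in place. Over probe sets, r between the pair of arrays was 0.939 for AE17, below the 0.979 of LLC and the 0.982 of MC38, and means over the lines are therefore also given without AE17. A brightness floor was set at the 30th percentile of probe set means, a log2 intensity of 4.49, and 16797 genes lay at or above it. Reading above it does not show expression. A set of 6 T and B cell markers, genes that tumour cell cultures are not expected to use, read from 3.02 to 6.10. Of their 36 values, 21 were at or above the floor. The upper end was Cd79a alone, at 6.10 on the MC38 sh Spp1 and 5.83 on the AE17 sh Ctrl array. The other markers of the set read no higher than 5.15, for Cd8a, so above that level the range rests on 1 gene. Markers of the labelled tissues were largely between 3.02 and 6.10. On both arrays of the line, all 8 lung epithelial markers in LLC and 7 of 8 intestinal markers in MC38, Cdx2, Vil1 and Epcam among them, read no higher than 6.10, as did 5 of 8 mesothelial markers in AE17, including Msln and Wt1.

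Dkk2 (Entrez gene 56811, chromosome 3) stood above that range on every array and read lower with sh Spp1 than with sh Ctrl in each line. In LLC it read 10.13 on the sh Ctrl array and 7.22 on the sh Spp1 array. The AE17 pair read 8.75 and 6.29, and the MC38 pair 10.67 and 9.73. The difference was larger in LLC and AE17 than in MC38, and the MC38 sh Spp1 array still read above the AE17 sh Ctrl array, so the groups overlapped. These are differences of 7.53-fold, 5.51-fold and 1.92-fold. The mean log2 ratio of sh Spp1 over sh Ctrl was -2.10 ± 1.03 (SD, n = 3 lines), and -1.93 ± 1.40 (SD, n = 2 lines) without AE17. In bulk RNA, fewer cells with the transcript and less transcript per cell cannot be told apart.

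**Figure D1:**
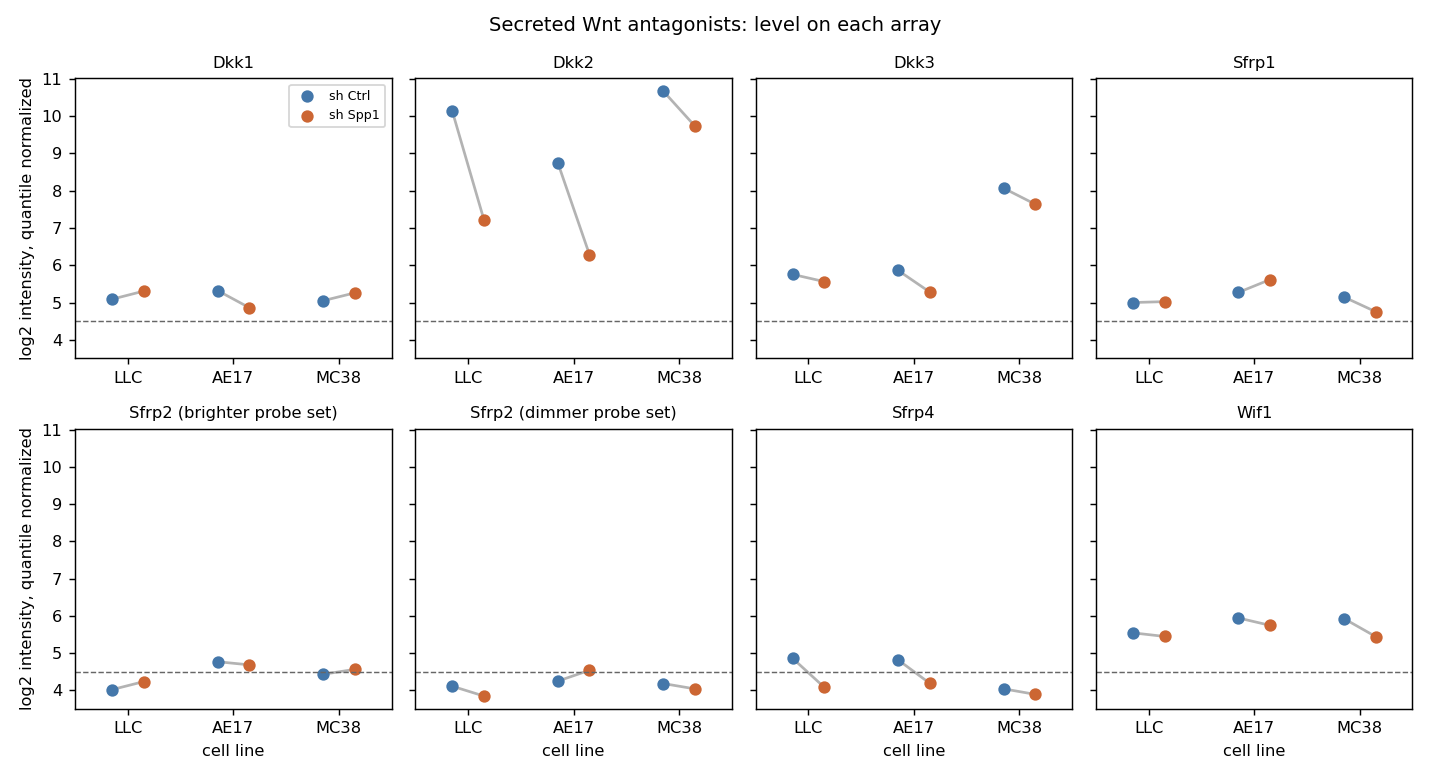
Log2 intensity after quantile normalization (vertical axis) on each of the 6 arrays, by cell line (horizontal axis), for the 8 probe sets of the 7 genes. A grey line joins the sh Ctrl and sh Spp1 arrays of a line and the dashed line is the brightness floor at 4.49. Dkk2 is the only gene whose 6 values all lie above 6.10, and Dkk3 stands higher in MC38.

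Set among all tested genes, 10 genes had a lower ratio than Dkk2 in LLC. In AE17 159 did, in MC38 313, and 14 of 16797 had a lower mean over the lines. Its values on the 6 arrays spanned 4.38 log2 units, and 1.4% of tested genes spanned more. The size in MC38 depended on the scaling. It was -0.94 on the log2 scale after quantile normalization, -0.54 in the values as deposited and -0.36 after median centring, and -0.96 relative to the median of all genes against -0.62 in both other scalings. In LLC the 3 scalings gave -2.91, -3.05 and -2.26, and in AE17 -2.46, -2.53 and -2.08. The deposited intensities behind these ratios were 1236 and 150 for LLC, 309 and 53.3 for AE17, and 1565 and 1075 for MC38.

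Dkk3 (Entrez gene 50781, chromosome 7), the divergent Dickkopf, differed more by line than by hairpin. It read 8.07 on the sh Ctrl and 7.64 on the sh Spp1 array of MC38, against 5.76 and 5.56 for LLC and 5.86 and 5.28 for AE17. The 2 MC38 arrays stood apart from the other 4 by a gap of 1.78 log2 units, while the LLC and AE17 arrays were intermixed. Those 4 lay within the range of the T and B cell markers, of which only Cd79a read as high. The log2 ratios were -0.19 for LLC, -0.58 for AE17 and -0.43 for MC38, a mean of -0.40 ± 0.19 (SD, n = 3 lines), and -0.31 ± 0.17 (SD, n = 2 lines) without AE17. After median centring the MC38 ratio was -0.01, and -0.26 relative to the median of all genes. Its values spanned 2.79 log2 units, more than those of most genes, since 5.64% spanned more.

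Dkk1 (Entrez gene 13380, chromosome 19), the prototype of the family, was nearly level over the arrays. Its 6 values lay within the range of the T and B cell markers, so they do not show expression. The sh Ctrl and sh Spp1 arrays of LLC read 5.09 and 5.31, those of AE17 5.32 and 4.86, and those of MC38 5.05 and 5.26. The sh Spp1 array was the higher in LLC and MC38 and the lower in AE17, and the values spanned 0.46 log2 units, where the median tested gene spanned 0.90. The log2 ratios were 0.22, -0.46 and 0.21 in LLC, AE17 and MC38, a mean of -0.01 ± 0.39 (SD, n = 3 lines). Without AE17 the mean was 0.21. The LLC ratio turned to -0.58 in the deposited values, and was -0.12 there relative to the median of all genes.

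Wif1 (Entrez gene 24117, chromosome 10), which binds Wnt ligands through its own WIF domain, read 5.55 with sh Ctrl and 5.45 with sh Spp1 for LLC, against 5.94 and 5.75 for AE17 and 5.93 and 5.45 for MC38. Each sh Spp1 array was the lower of its pair, with log2 ratios of -0.10, -0.20 and -0.48, and the groups overlapped. The mean ratio was -0.26 ± 0.20 (SD, n = 3 lines). All 6 values were within the range of the T and B cell markers, of which only Cd79a read as high.

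The frizzled-related genes were all dim. Sfrp1 (Entrez gene 20377, chromosome 8) read 5.00 and 5.02 on the LLC pair, sh Ctrl first, 5.27 and 5.62 on the AE17 pair and 5.15 and 4.76 on the MC38 pair, with both AE17 arrays above the 4 others. Its ratios were 0.02, 0.35 and -0.39, which go in opposite directions in AE17 and MC38, and their mean was -0.01 ± 0.37 (SD, n = 3 lines). In the values as deposited the 3 ratios were -0.79, -0.09 and -0.60, and -0.33, 0.14 and -0.68 relative to the medians of all genes.

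Sfrp2 (Entrez gene 20319, chromosome 3) had 2 probe sets that disagreed on the sign in every line. The brighter read 4.02 and 4.24 on the LLC pair, 4.77 and 4.69 on the AE17 pair and 4.43 and 4.57 on the MC38 pair, with ratios of 0.21, -0.08 and 0.13. The dimmer had ratios of -0.26, 0.29 and -0.14 in the same order. With 3 of 6 values of the brighter and 1 of 6 of the dimmer at or above the floor, no direction can be read for Sfrp2, and neither probe set entered the fits below.

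Sfrp4 (Entrez gene 20379, chromosome 13) read 4.86 on the sh Ctrl and 4.08 on the sh Spp1 array of LLC, against 4.82 and 4.19 for AE17 and 4.04 and 3.90 for MC38. The sh Ctrl arrays of LLC and AE17 were the only ones at or above the floor, and both sh Spp1 arrays of these lines were under it. The ratios were -0.78, -0.63 and -0.15, a mean of -0.52 ± 0.33 (SD, n = 3 lines), and with 4 of 6 values under the floor their size is approximate. Sfrp4 did not enter the fits.

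Taking the genes by direction, Dkk2, Dkk3, Sfrp4 and Wif1 read lower with sh Spp1 in all 3 lines, and 0 of the 7 were higher in all, while 16.8% of tested genes were. The same 4 were lower in all lines after median centring, and in the values as deposited Sfrp1 and Sfrp2 joined them. Of all tested genes, 15.5% were lower in every line after quantile normalization, 30.5% as deposited and 8.11% after median centring. Of the 21 ratios 15 were below 0, where of all genes 47.2% were for LLC, 52.7% for AE17 and 47.7% for MC38. The genes were chosen on these ratios, so nothing is read from the counts. Of the 7, 5 lay at or above the floor on average and entered the fits, and 3 of these were among the 4. In none of the 7 did all sh Spp1 arrays read below all sh Ctrl arrays, a pattern that 4.79% of tested genes showed, nor above them, as 5.74% did.

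**Figure D2:**
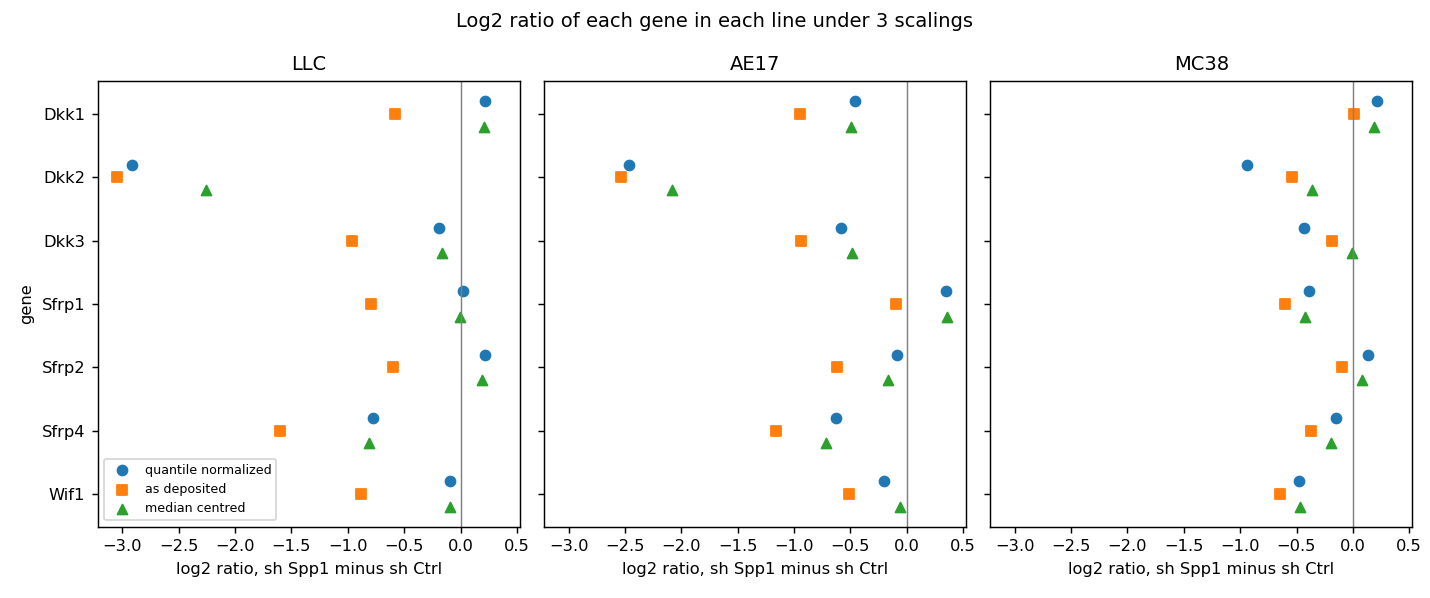
Log2 ratio of sh Spp1 over sh Ctrl (horizontal axis) for each of the 7 genes (vertical axis) in each line, after quantile normalization, as deposited and after median centring. Dkk2 lies between -3.05 and -2.08 in LLC and AE17 under all 3 scalings and between -0.94 and -0.36 in MC38; most other ratios are within 1 log2 unit of 0.

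By size, Dkk2 alone of the 7 was lower by at least 1 log2 unit in LLC, as were 1.81% of the genes whose brighter array reached the floor, and alone in AE17, as were 8.71%. In MC38 0 of the 7 were, against 1.7% of genes, and 0 were lower by that much in every line, against 0.0298% or 5 genes. None was higher by that much in a line, against 1.75% of genes for LLC, 9.9% for AE17 and 0.882% for MC38. In the values as deposited 4 of the 21 ratios reached that size, those of Dkk2 and Sfrp4 in LLC and AE17. On that scale 17.1% of genes were lower by at least 1 log2 unit for LLC and 13.1% for AE17; after median centring, where Dkk2 alone reached that size, the shares were 0.918% and 4.82%.

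**Figure D3:**
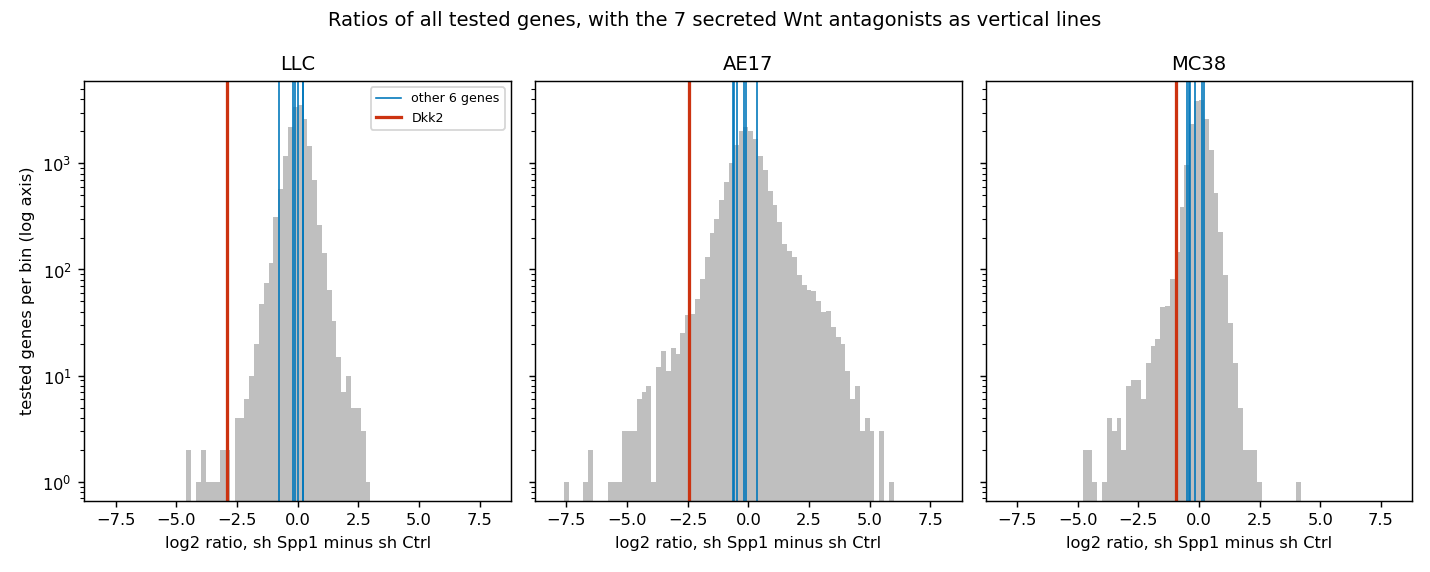
Number of tested genes (vertical axis, log scale) by log2 ratio of sh Spp1 over sh Ctrl (horizontal axis, bins of 0.2) in each line, with the 7 genes as vertical lines. Dkk2, at -2.91, -2.46 and -0.94 from LLC to MC38, lies in the lower tail in each line, with 0.0595%, 0.947% and 1.86% of genes lower. The other 6 genes lie between -0.78 and 0.35.

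Across the 6 arrays the 7 genes did not share 1 pattern. The pair most alike was Dkk2 and Dkk3, at Pearson r = 0.74 and Spearman rho = 0.83, and the pair least alike was Dkk1 and Sfrp1, at -0.63 and -0.26. The arrays of a line share its cells, so these 21 correlations over 6 arrays describe the values and carry no p. Among tested genes whose SD over the arrays was no less than 0.5 times that of the gene compared, those most like Dkk2 were Plac8 (r = 0.96), Bnc1 (r = 0.95) and the formin Diaph3 (r = 0.94), out of 1363 compared. Bnc1, a transcription factor of squamous epithelium and mesothelium, read 8.15 and 6.47 on the LLC pair, 6.62 and 5.41 on that of AE17 and 7.83 and 7.69 on that of MC38, low on the same arrays as Dkk2. Those most like Dkk3 were Lrrtm2, Esm1 and Elf1, each at r = 0.99, and 41 of 2965 genes compared exceeded 0.95. Esm1, an endothelial-secreted proteoglycan, read 9.82 and 8.57 in MC38 and from 4.75 to 5.59 elsewhere. For Sfrp4 the nearest was Rtkn2 at r = 0.996, which went from 9.95 to 7.41 in LLC and from 9.71 to 7.72 in AE17. For the other genes, whose values spanned less than 0.9 log2 units, the nearest were Snx16 for Dkk1, Spata3 for Sfrp1, Nsmaf for Sfrp2 and Btnl2 for Wif1, with r from 0.989 for Snx16 to 0.996 for Spata3.

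The 7 genes lie on 6 chromosomes, and Dkk2 and Sfrp2 share chromosome 3. The tested genes next to Dkk2 on either side in GRCm38.p6 were Papss1, which makes the sulfate donor of the cell, with ratios of -0.57, -0.79 and -0.21 in LLC, AE17 and MC38, and Aimp1, with 0.74, -0.37 and -0.24. Of the 14 neighbours of the 7 genes, 3 were lower in every line, Mbl2 beside Dkk1, Papss1 beside Dkk2 and Usp47 beside Dkk3, and 3 were higher in every line, Prkg1 beside Dkk1 and both Plrg1 and Tlr2 beside Sfrp2. Of all tested genes 15.5% were lower and 16.8% higher in every line. These neighbours were looked up after the ratios were known.

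The other genes of the pathway were taken from 7 lists, which share a few genes; 97 of these genes had a probe set and 93 were tested. They were tested with limma, blocked on line, and p-values were adjusted by Benjamini-Hochberg over all 16797 genes. The limma fit called 0 genes of the pathway higher and 0 lower at an adjusted p under 0.05, and 0 of all genes, a share of 0%, with a smallest adjusted p of 0.723. At an unadjusted p under 0.05 there were 4 of the 93, Porcn, Fzd3, Ptk7 and Tle3, each with a positive mean ratio, beside 1017 or 6.05% of all genes. Fzd3 reached the floor on 2 arrays only, at 4.86 on LLC sh Spp1 and 6.60 on AE17 sh Spp1, so its ratios are approximate. The line contrasts of the same fit also called 0 genes at an adjusted p under 0.05 (0% in each), with smallest adjusted p of 0.129 for AE17 against LLC, 0.0559 for MC38 against LLC and 0.0667 for MC38 against AE17. At an unadjusted p under 0.05 they had 2153, 1936 and 2209 genes. The error of these contrasts holds the response to the hairpin in each line, since the arrays of a line are not replicate cultures. The same limma fit without an AE17 array called from 511 to 1443 genes in the contrasts of AE17 with the other lines and 1032 between MC38 and LLC; the AE17 array that is left is then assumed to vary like the other lines.

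Among the other extracellular inhibitors, 11 of 12 had a ratio below 0 in LLC, against 47.2% of all genes, and the list's median was -0.33 where that of all genes was 0.03. Most of the list was dim. Dkk4, Dkkl1, Sfrp5, Notum, Sost, Sostdc1, Cer1 and Draxin lay within the range of the T and B cell markers on every array. The count of signs therefore does not show a change in expression. For AE17 the median was -0.13 and for MC38 0.08, beside -0.04 and 0.02 for all genes. Frzb, a further frizzled-related protein, read 6.20 and 4.87 on the LLC pair, 4.44 and 6.89 on that of AE17 and 4.81 and 4.66 on that of MC38. Trabd2b, a protease that inactivates Wnt ligands, had a mean ratio of 0.34 ± 0.73 (SD, n = 3 lines). Apcdd1, a membrane-bound inhibitor, had ratios of -1.03, -1.93 and 1.17, and Igfbp4, which binds insulin-like growth factors and can bind Lrp6, -0.32, -1.26 and -0.26. The remaining Dickkopf genes Dkk4 and Dkkl1 had means of -0.21 ± 0.16 and -0.29 ± 0.18, and 3 of the 12 were lower in every line, beside 15.5% of all genes. As deposited, relative to all genes, the list's medians were -0.57, -0.36 and -0.14.

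Of the receptors that Dickkopf proteins bind, Lrp6 read from 10.41 to 10.63 on the 6 arrays, with ratios of -0.01, 0.01 and -0.07 in LLC, AE17 and MC38. Lrp5 had 0.30, 0.72 and -0.04, Kremen1 -0.01, 0.77 and -0.10, and Kremen2 -0.20, -0.31 and -0.10. Of 16 tested receptors and coreceptors, 8 were higher by at least 1 log2 unit in AE17, beside 9.9% of all genes, and there the list's median was 0.95, beside 0.07 in LLC and 0.00 in MC38. The Wnt-binding receptors Fzd6 and Fzd7 had the highest means: Fzd6 had ratios of 0.14, 3.92 and 0.91, and Fzd7 of 0.72, 3.86 and 0.31, in the order LLC, AE17, MC38. Fzd4 had 0.43, -0.80 and -0.01.

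Of the ligands and their secretion factors, 19 of 21 were tested. In every line 3 of them were higher and 2 lower, beside 16.8% and 15.5% of all genes, and the medians were 0.20, -0.04 and -0.02 in LLC, AE17 and MC38. Porcn, which adds the lipid that Wnt proteins need for secretion, had ratios of 0.25, 1.08 and 0.56. Wnt5a, a ligand that signals mostly without beta-catenin, had 0.67, 1.03 and -0.13. The lowest means were those of Wnt7b, at -0.44 ± 1.30 (SD, n = 3 lines), and Wnt3, at -0.22 ± 0.21. Relative to all genes, the LLC median of this list was 0.18 after quantile normalization and -0.10 in the values as deposited, so its sign depends on the scaling.

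R-spondins, which strengthen Wnt signals, had with their receptors and the ligases Rnf43 and Znrf3 medians of 0.30, 0.10 and 0.09, with 4 of 9 higher in every line and 1 lower, beside 16.8% and 15.5% of all genes. The highest means were those of Rspo3, at 0.75 ± 1.71 (SD, n = 3 lines), and Rspo2, at 0.53 ± 0.56, and the lowest those of Lgr6, at -0.25 ± 0.43, and Rspo4, at -0.07 ± 0.10. Rspo3 and Rspo2 stood above the range of the T and B cell markers only on the AE17 sh Spp1 array, at 7.97 and 6.31. Rspo4 lay within that range on every array. As deposited and relative to all genes, the list had medians of 0.03, 0.05 and -0.15.

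Inside the cell, the 12 tested transducers and members of the destruction complex had medians of 0.05, 0.01 and 0.10. Ctnnb1, which encodes beta-catenin, read 11.20 and 10.53 on the LLC pair, 11.56 and 11.20 on the AE17 pair and 11.20 and 10.98 on the MC38 pair. Its mean ratio was -0.42 ± 0.23 (SD, n = 3 lines), and 0.33 after median centring. On the centred scale the medians of all genes were 0.33, 0.22 and 0.26 in LLC, AE17 and MC38, so 0.33 was close to the typical gene. The Dishevelled genes Dvl3 and Dvl2 had the highest means, 0.63 ± 0.81 and 0.48 ± 0.62, and Tnks2 had -0.14 ± 0.48. As deposited, these medians relative to all genes were 0.63, 0.39 and 0.37.

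The TCF and LEF factors and their cofactors were higher by at least 1 log2 unit in AE17 for 7 of 12, beside 9.9% of all genes, with a median of 1.34, against medians of 0.00 for LLC and 0.19 for MC38. Tle3, a corepressor, had 0.58, 1.08 and 0.63 and Bcl9l, a coactivator of beta-catenin, 0.04, 1.96 and 0.94. Tle4 and the inhibitor Ctnnbip1 had the lowest means, -0.15 ± 0.86 and -0.26 ± 0.40 (SD, n = 3 lines). Genes that beta-catenin is known to induce had medians of 0.15, 0.44 and -0.02 over 19 tested members, with 3 higher in every line and 1 lower, beside 16.8% and 15.5% of all genes. Axin2, the widely used target of the pathway, had 0.27, 1.01 and -0.37, and was picked for that role after its values were seen. Nkd1 had 0.26, 2.68 and 0.12 and Bambi 0.17, 2.17 and -0.69, while Mmp7 had -0.55, -0.45 and -0.03. Mmp7 read from 4.19 to 4.89, within the range of the T and B cell markers. Axin2 and Nkd1 stood above that range only on the AE17 sh Spp1 array, at 6.70 and 7.50. Relative to all genes in the values as deposited the target medians were -0.11, 0.67 and -0.25, so the sign in LLC depends on the scaling. After quantile normalization 18.6% of all genes had a ratio of at least 1 in size for AE17, 3.56% for LLC and 2.59% for MC38. The gap between AE17 and LLC depended on the scaling: the shares were 23.2% and 17.9% as deposited and 23.8% and 16.8% after median centring, with 3.82% and 6.23% for MC38. For LLC 134 genes were higher and 3216 lower by that size as deposited, and 2707 higher and 156 lower after centring, against 299 and 308 after quantile normalization. The AE17 split was 1683 and 2168 as deposited and 3362 and 854 after centring, against 1751 and 1540.

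**Figure D4:**
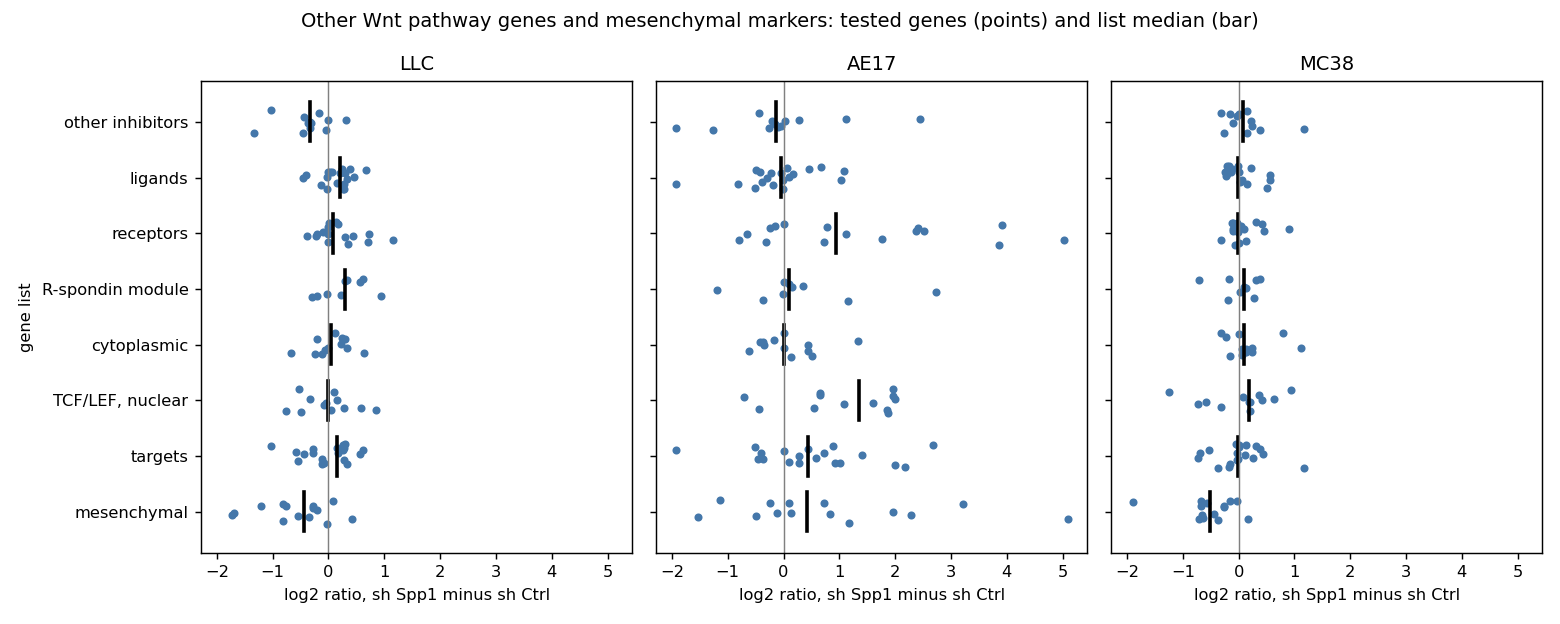
Log2 ratio of sh Spp1 over sh Ctrl (horizontal axis) of each tested gene of the 7 pathway lists and of the mesenchymal markers (vertical axis) in each line, with the list median as a bar. Receptors and TCF/LEF factors have medians of 0.95 and 1.34 in AE17, and mesenchymal markers have -0.45 in LLC and -0.51 in MC38.

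Most mesenchymal and fibroblast markers, like Dkk2, read lower on the sh Spp1 array in LLC and MC38 but, unlike Dkk2, higher in AE17. Of 14 tested, 12 were below 0 in LLC and 13 in MC38, with medians of -0.45 and -0.51, and 5 in AE17, with a median of 0.43. The summed linear level of the 16 markers ran from 15100 to 19833 on the sh Ctrl arrays and from 11227 to 24600 on the sh Spp1 arrays, and 0 of the 16 were under the floor on all arrays. Pdgfra, a growth factor receptor of fibroblasts, had -1.73, -1.14 and -1.89, and the mesenchymal transcription factor Prrx1 -0.27, -1.53 and -0.72, the lowest means among the tested markers. The highest were those of Col1a1, a fibrillar collagen chain, at -0.55, 5.09 and -0.65, and of the receptor Pdgfrb, at 0.43, 3.22 and -0.68, and in AE17 the collagen gene Col3a1 had 2.29. Vim, the intermediate filament of mesenchymal cells, had -0.34, -0.11 and -0.15. The summed levels of T and B cell markers ran from 133 to 180 on the sh Ctrl and from 142 to 180 on the sh Spp1 arrays, those of macrophage and leukocyte markers from 303 to 540 and from 333 to 740, and those of endothelial markers from 194 to 291 and from 188 to 192. The leukocyte genes Ptprc and Adgre1 were under the floor on all arrays. In the same list Cd68 read from 6.51 to 8.71 and Cd14 from 6.26 to 7.42, above the range of the T and B cell markers. Lyz2 went from 7.50 with sh Ctrl to 5.12 with sh Spp1 in AE17. The epithelial and mesothelial sums differed most within the AE17 pair. There the 8 intestinal epithelial markers summed to 2463 with sh Ctrl and 277 with sh Spp1, with ratios of -4.61 for the keratin Krt8 and -3.04 for Krt20. Krt8, at 11.08 on the AE17 sh Ctrl array, made up most of the larger sum. The remaining intestinal ratios in AE17 ran from -0.55 for Vil1 to 0.38 for Cdx2. The 8 mesothelial markers summed to 451 and 1316, with 2.76 for both Pdpn and Gata6. The remaining mesothelial ratios ran from -1.21 for Bnc1 to 1.14 for Lrrn4, so neither list moved as a whole. In LLC the intestinal sums were 1049 and 1267 and the mesothelial ones 600.2 and 493, and in MC38 287 and 339 and 2375 and 2415. The lung epithelial sum ran from 210.4 to 313 with sh Ctrl and from 231 to 243 with sh Spp1. The part of these markers in the ratios of Dkk2, of the receptors and of the TCF and LEF factors was not tested.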

How the data were processed

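The table holds linear intensities of 41345 probe sets on 6 arrays, deposited by the authors; per the submitters' processing notes they used RMA and GeneSpring GX 12.5, and the scale and centring between arrays are not given in the sources used here. The deposited intensities were taken to log2 and quantile normalized with limma 3.58.1 in R 4.3.3. Probe sets with several symbols (1814) or none (16010) were left out. Symbols came from the platform annotation, and 23328 probe sets matched an Entrez gene of GRCm38.p6. The brightest probe set stood for a gene, at a floor of the 30th percentile of means. The fit was limma with the cell line as a block, since the replicate numbers mark the lines, and Benjamini-Hochberg adjustment. Each line gave 1 array per group, so p-values measure the spread between lines, and the number of arrays limits the precision. Script outputs were tested on simulated data. The 7 genes and all lists were chosen with earlier results of these data known. By rule, named are the 7 genes, in each pathway list the 2 highest and 2 lowest means and any gene past a fit (up to 6), and for each of the 7 the 3 genes with the highest Pearson r. Of those 3 genes, the text gives only the nearest for genes other than Dkk2 and Dkk3. Clone names, predicted genes and Rik symbols were passed over. Outside that rule the text also names Dkk4, Dkkl1, Sfrp5, Notum, Sost, Sostdc1, Cer1, Draxin, Lrp5, Lrp6, Kremen1, Fzd3, Ptk7 and Axin2. It further names chromosome neighbours, genes with opposite ratios and cell type markers such as Col3a1 and Vim. Figures used matplotlib 3.10.9. Alternatives were other scalings, filters, probe set averaging, an intensity trend, leaving out the line block or the hairpin term, a larger ratio threshold and leaving out a line. Leaving out single arrays for the line contrasts was chosen after seeing the data.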

Additional observations from a re-analysis of the deposited data

Results flagged for a closer look

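Opposite ratios of at least 1 log2 unit in size in different lines were found for 3 pathway genes. Frzb had a log2 ratio of sh Spp1 over sh Ctrl of -1.33 in LLC and 2.45 in AE17. Apcdd1 had -1.03 in LLC and -1.93 in AE17 but 1.17 in MC38. Pygo1, a nuclear cofactor of beta-catenin, had 1.87 in AE17 and -1.24 in MC38. It read 4.82 and 6.69 on the AE17 pair and 5.80 and 4.56 on the MC38 pair, sh Ctrl first. Only its AE17 sh Spp1 value lay above the range of the T and B cell markers. Frzb read 4.44, under the floor, on the AE17 sh Ctrl array, so the size of its AE17 ratio is approximate. With 1 array per group in each line these opposite ratios were not tested.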

How the results depend on the processing

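With 3 lines and 1 array per group in each, leaving out a line or changing the scaling moved several values, and the causes were not tested. The mean ratio of Dkk2 over the lines was below 0 under every scaling and without each line. For all 7 genes, 34 of 42 values under alternatives moved by less than 1 SD over the lines, 5 moved by more and 3 turned sign. These counts do not measure stability. Leaving out 1 of 3 lines cannot move a mean by 1 SD over those lines, and averaging probe sets changes Sfrp2 only. As deposited, the means were -0.51 for Dkk1, -0.69 for Dkk3, -0.50 for Sfrp1, -0.44 for Sfrp2, a turned sign, -1.04 for Sfrp4 and -0.68 for Wif1. These are not relative to all genes, whose medians as deposited were -0.46 in LLC, -0.23 in AE17 and 0.08 in MC38. Leaving out each line in turn, the mean of Dkk1 ran from -0.12 to 0.21 and that of Sfrp1 from -0.18 to 0.18. The hairpin fit called 0 genes under each alternative, with 552 to 4332 at an unadjusted p under 0.05 by limma; without the replicate block of cell lines it called 0, with 630 at an unadjusted p under 0.05 and a smallest adjusted p of 0.943.

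The contrast of AE17 with LLC called 103 genes as deposited, 1 with an intensity trend, 9 without the hairpin term and 0 to 1443 with an array left out. MC38 with LLC called 225, 44 without the filter, 42 at the 50th percentile and with the trend, 89 without the hairpin term and 0 to 1032. MC38 with AE17 called 287, 27 at the 50th percentile, 100 without the hairpin term and 0 to 1157. Calls with an array left out came only when it was an AE17 array. Genes with a ratio of at least 1 in size numbered 3350 as deposited and 2863 after centring for LLC, 3851 and 4216 for AE17, and 684 and 1063 for MC38; at a size of 2 they numbered 53 in LLC, 837 in AE17 and 72 in MC38.

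After centring, mean ratios turned sign for Igfbp4 (0.078), Apcdd1 (0.067), Fzd4 (0.15), Ctnnb1 (0.33), Tnks2 (0.59), Ctnnbip1 (0.15) and Tle4 (0.21). These means are not relative to all genes, whose medians after centring were 0.33 in LLC, 0.22 in AE17 and 0.26 in MC38. Igfbp4, Apcdd1, Fzd4, Ctnnbip1 and Tle4 lay below each of these medians, and only Tnks2 lay above them all. As deposited, mean ratios turned sign for Frzb (-0.12), Trabd2b (-0.0056) and Tnks2 (0.12), where the all-gene medians were -0.46, -0.23 and 0.08. The mesenchymal median turned to 0.013 relative to all genes in both scalings. Leaving out each line in turn, the mean ran from -1.48 to 0.070 for Apcdd1, -0.74 to 1.15 for Frzb, -0.043 to 0.68 for Trabd2b, -0.89 to 0.31 for Wnt7b, -0.40 to 0.21 for Fzd4, -0.24 to 1.28 for Rspo3, -0.39 to 0.091 for Tnks2, -0.65 to 0.13 for Tle4 and -0.26 to 1.17 for Bambi. List medians ran from -0.014 to 0.048 for ligands, -0.038 to 0.77 for TCF and LEF factors, -0.10 to 0.32 for targets and -0.54 to 0.15 for mesenchymal markers.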
